A study of Mustela putorius furo with 20 samples.

Results

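The outer subventricular zone (oSVZ) below the coronal gyrus (CG) of the ferret was compared between postnatal day 5 (P5) and postnatal day 15 (P15). The libraries were chosen by their labels, which put 5 in the CG at P5 and 5 in the CG at P15, 10 of the 20 libraries of the series. The other 10 are of the oSVZ below the suprasylvian sulcus (SSS) of the same animals. The kits were 5 days old (P5, the onset of folding) or 15 days old (P15, the middle of folding), they received no treatment that the labels name, and each library pooled laser-captured oSVZ of consecutive Nissl-stained coronal sections from the left hemisphere of 1 animal. P5 and P15 animals are different animals with separate library numbers, so the comparison is unpaired, and age cannot be told apart from whatever else differed between the 2 sets of animals. At P15 the oSVZ is more dispersed than at P5, and a captured area holds every cell in it, migrating neurons, glia and vessels included.

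The oSVZ is the germinal layer that is enlarged in mammals with a folded cortex. Basal radial glia, which keep a process towards the pial surface, divide there to renew themselves and to give rise to intermediate progenitors, whose daughters are excitatory neurons that climb the radial fibres into the cortical plate. Interneurons born in the ventral forebrain cross the layer on their way to the cortex. When the birth of excitatory neurons ends, the progenitors of the dorsal forebrain turn to astrocytes and oligodendrocyte precursors, and in the ferret this turn falls after birth, while the gyri form.

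Reads were counted per gene, and assigned reads ranged from 2941880 to 3545754 per library at P5 and from 2618470 to 4095208 at P15. Of 32057 annotated genes 21247 had a read in the CG libraries, and 12669 had enough reads to be tested. Levels are given as CPM (read counts per library size, scaled by the trimmed mean of M-values, TMM), for libraries 1 to 5 of each age in that order or as mean ± SD (n = 5). They compare the libraries for 1 gene and are not divided by gene length. The genes named are those of lowest p, of largest change and of highest level over all genes and within gene lists, and 16 more were added after their values were seen. After thinning all libraries to the same depth, 14200 to 15007.3 genes had a read at P5 and 14807.6 to 16625.1 at P15 (means 14634.5 and 15841.5, exact permutation test, two-sided p = 0.0317, adjusted p = 0.0926 over 7 library measures, smallest possible p 0.00794). The tested genes without a read numbered 218 to 586 per library at P5 and 65 to 300 at P15, with the highest values, 586 and 531, in P5 libraries 1 and 4. Correlations of log2 CPM were 0.870 to 0.922 within P5, 0.862 to 0.918 within P15 and 0.799 to 0.873 between the ages, and the first principal component, with 33.0% of the variance, separated the ages. *SEH1L*, a nucleoporin gene, took 3.45 to 6.61% of the reads of a P5 library and 2.75 to 7.09% of a P15 library (log2 fold change -0.05, SE 0.242, FDR = 0.925, edgeR).

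From P5 to P15, 1661 genes changed at an FDR under 0.05 (13.1% of 12669 genes tested, edgeR quasi-likelihood test), 936 of which rose (7.39%) and 725 of which fell (5.72%). The called genes that rose had larger fold changes than the called genes that fell, and the 2 sets were not matched for abundance. Among the genes that rose, 732 did so by more than 2-fold, 355 by more than 4-fold and 172 by more than 8-fold, while 363, 72 and 20 genes fell by as much. The median size was 1.63 on the log2 scale for the genes that rose and 1.00 for those that fell, against a median log2 fold change of -0.01 over all tested genes. A change of more than 1.5-fold, tested as such with edgeR's glmTreat, was found in 582 genes (4.59% of the genes tested), 427 up and 155 down. In 927 tested genes (7.32%) all P15 libraries lay above all P5 libraries, in 696 (5.49%) all lay below, and of the 1661 called genes 1215 (73.1%) were separated in this way. Genes named below were mostly picked for a low p or a large change. Their separation describes the values and adds no support to the call. Without P5 libraries 1 and 4 together, an alternative chosen after seeing the data, 1015 genes were called, 572 up and 443 down.

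**Figure D1:**
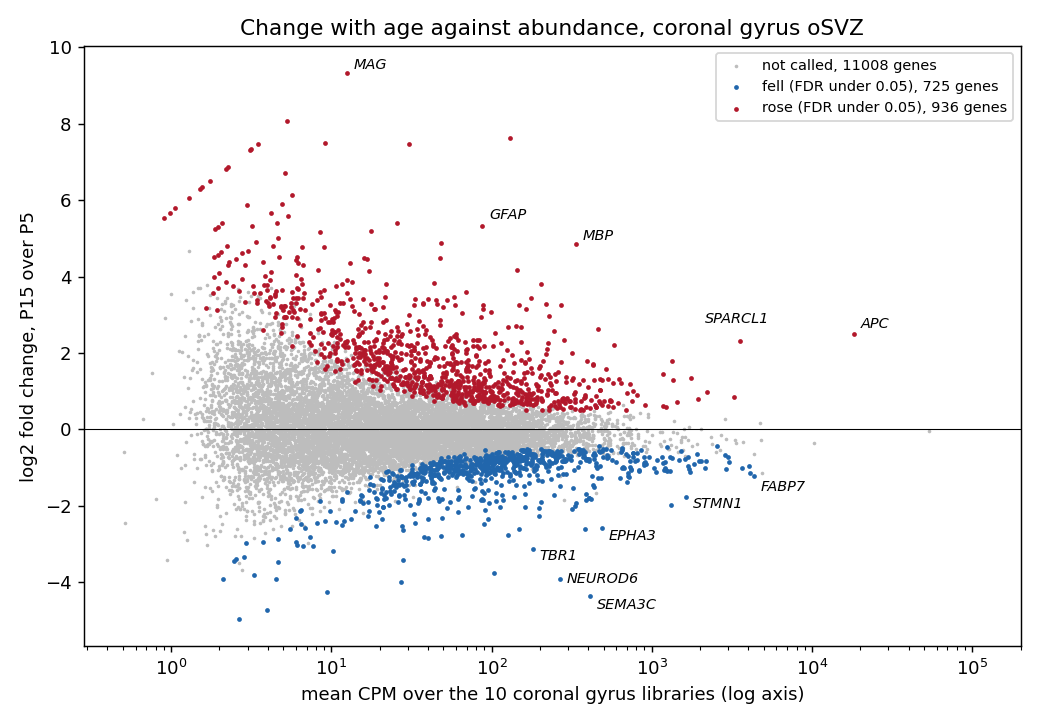
Change from P5 to P15 (log2 fold change, P15 over P5) against the mean level over the 10 CG libraries (CPM, log axis) for the 12669 tested genes, 1 point each, with the 936 genes that rose in red, the 725 that fell in blue and the 11008 not called in grey. The named falls reach from *FABP7* (-1.22) to *SEMA3C* (-4.35), the large rises lie mostly at low levels, and the height of *MAG*, which had no read at P5, depends on the prior count of the fit.

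Rises and falls differed in the abundance of the genes they struck. Among the 93 tested genes with a mean of at least 1000 CPM, 38 fell and 12 rose. Among the 417 genes of 300 to 1000 CPM, 95 fell and 62 rose. Between 3 and 10 CPM, by contrast, 118 of 3070 genes rose and 22 fell. The median log2 fold change of the tested genes was 0.45 from 1 to 3 CPM, -0.18 from 300 to 1000 CPM and -0.47 at 1000 CPM and over. Called genes had a median size of 3.25 on the log2 scale from 3 to 10 CPM and 0.86 from 100 to 300 CPM. The part of abundance in the larger sizes of the rises was not tested. Precision followed abundance, since the median standard error of the log2 fold change was 1.11 from 1 to 3 CPM, 0.472 from 10 to 30 CPM and 0.181 from 300 to 1000 CPM. The standard error was derived from the test, as the size of the log2 fold change over the square root of F, and is approximate. The 95% interval built from it lay within 2-fold for 3521 genes (27.8%). Of the 11008 genes that were not called, 7568 (68.8%) had an interval that reached beyond 2-fold in at least 1 direction, so that a 2-fold change is not excluded for them.

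**Figure D2:**
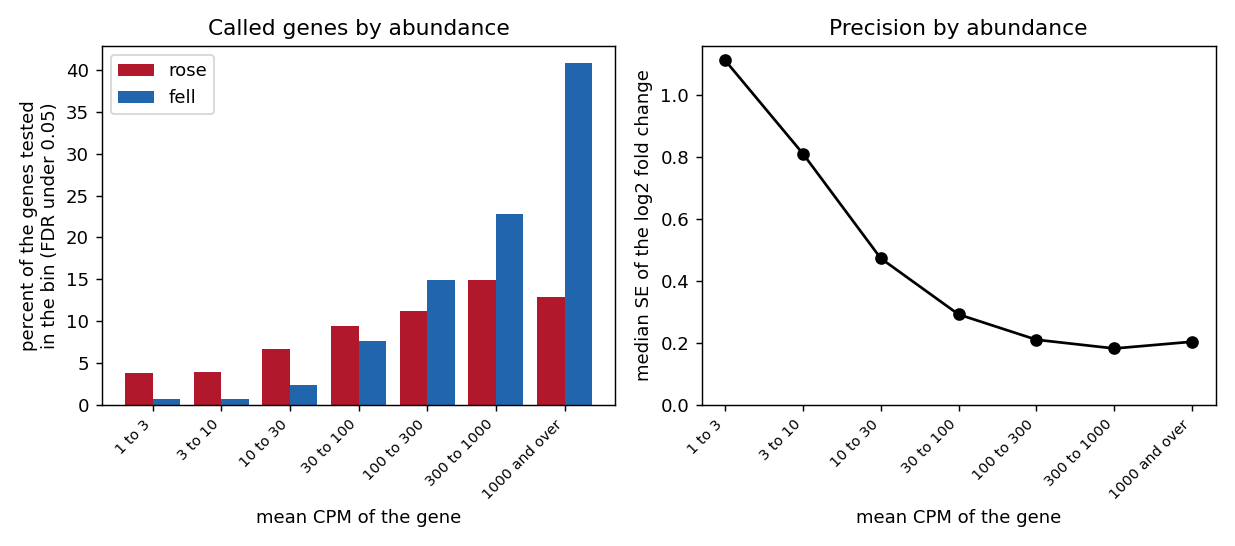
Share of tested genes that rose or fell (left, percent, FDR under 0.05) and median standard error of the log2 fold change (right) by the mean level of the gene (CPM). The share that fell passes the share that rose from 100 CPM upwards and is largest at 1000 CPM and over (38 of 93 genes), and the standard error drops from 1.11 to 0.181 before it levels off. The 9 genes under 1 CPM are not drawn.

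Several transcription factors of the excitatory lineage were far lower at P15, and in bulk RNA fewer cells of a type and less RNA per cell cannot be told apart. *NEUROD6*, a helix-loop-helix factor of young projection neurons, was at 446, 341, 591, 538 and 588 CPM at P5 and 29.95, 46.1, 20.9, 21.7 and 46.9 CPM at P15. The P5 libraries lay far above the P15 libraries, a fall of 15.1-fold in the means (log2 fold change -3.92, SE 0.239, FDR = 4.26e-13). *TBR1*, which specifies deep-layer and newborn glutamatergic neurons, was at 219, 257, 407, 407 and 341 CPM at P5 and 42.1, 41.5, 39.99, 27.5 and 36.002 CPM at P15, again without overlap (log2 fold change -3.12, SE 0.282, FDR = 2.01e-09). *EOMES*, the factor of intermediate progenitors (also known as TBR2), was at 67.4, 54.3, 111, 90.2 and 85.6 CPM at P5 and 14.5, 16.7, 14.2, 12.97 and 22.9 CPM at P15 (log2 fold change -2.33, SE 0.411, FDR = 1.54e-04). The lowest P5 value of *EOMES*, 54.3 CPM, lay above the highest at P15, 22.9 CPM. *NEUROD1*, which acts between the progenitor and the neuron, fell from 17.8 ± 12.2 to 0.899 ± 1.13 CPM with no read in P15 libraries 4 and 5 (log2 fold change -4.25, SE 0.777, FDR = 2.48e-04). Without P15 library 2 its log2 fold change was -4.90.

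In the list of excitatory lineage and layer factors, 10 of 34 tested members fell (29.4%, beside 5.72% of all tested genes) and 3 rose (8.82%, beside 7.39%). The median log2 fold change was -0.07, with a range of -0.23 to 0.11 over the alternatives, against -0.01 for all genes. Each list count below stands beside these shares of all tested genes, and nothing is read from counts near them. The list did not move as 1 group, since 15 of the 34 had a positive log2 fold change, up to 1.52. Its members described here are falls. *CUX2*, a factor of upper-layer neurons, fell from 317 ± 92.6 to 76.7 ± 10.8 CPM (log2 fold change -2.04, SE 0.261, FDR = 1.04e-06). *ZBTB18*, a repressor needed for the maturation of cortical neurons, was at 554, 407, 611, 741 and 715 CPM at P5 and 195, 189, 159, 127 and 177 CPM at P15 (log2 fold change -1.84, SE 0.193, FDR = 2.84e-08). The libraries of the 2 ages did not overlap for either of these 2 genes. Among intermediate progenitor and proneural genes 5 of 12 tested members fell (41.7%) and 1 rose (8.33%), with a median of -1.08. In this list 3 fell without P15 library 2, 4 or 5 or without P5 libraries 1 and 4. The rise was lost without P5 library 1, 4 or 5 or P15 library 3 or 5. Together the tested members of that list summed to 323 to 428 CPM in the P5 libraries and 198 to 273 CPM in the P15 libraries. Among 6 tested fetal heterochronic genes only *HMGA2*, a chromatin protein of early progenitors, fell (37.5, 23.7, 20.9, 23.8 and 32.9 CPM at P5 and 5.596, 8.49, 3.95, 19.8 and 6.55 CPM at P15, log2 fold change -1.65, SE 0.484, FDR = 0.0204), with P15 library 4 nearest to P5, and its call was lost without P5 library 1 or P15 library 1, 3 or 5 (FDR 0.00383 to 0.0882 over the alternatives).

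Of the 41 tested genes of the newborn neuron's cytoskeleton and migration 16 fell and 5 rose (median -0.57). *STMN1*, which destabilises microtubules in migrating neurons, was at 1662, 2564, 2739, 2617 and 3041 CPM at P5 and 915, 824, 636, 643 and 706 CPM at P15 (log2 fold change -1.76, SE 0.174, FDR = 9.24e-09). *TUBB3*, the neuronal beta-tubulin, fell from 114 ± 24.004 to 28.1 ± 5.29 CPM (log2 fold change -2.02, SE 0.2396, FDR = 2.94e-07), and *ELAVL4*, an RNA-binding protein of neurons, from 592 ± 95.9 to 184 ± 31.5 CPM (log2 fold change -1.69, SE 0.173, FDR = 1.89e-08). Both were lower in all 5 P15 libraries than in any P5 library. *DCX*, the microtubule protein of migrating neurons, was at 157, 141, 251, 188 and 182 CPM at P5 and 82.6, 76.4, 121, 168 and 131 CPM at P15. The ranges of *DCX* overlap, and its fall was close to the threshold (log2 fold change -0.67, SE 0.227, FDR = 0.04803), with an FDR of 0.0175 to 0.174 over the alternatives. The call was lost without any 1 library other than P5 library 2 and P15 library 4. The members that rose include *MAP1A*, a microtubule protein of mature neurons (49.4, 78.8, 138, 95.7 and 53.7 CPM at P5 and 259.7, 509, 511, 317 and 197 CPM at P15, log2 fold change 2.11, SE 0.303, FDR = 8.45e-06), and *KIF5A*, a motor of axonal transport (136 ± 27.8 to 385 ± 109.8 CPM, log2 fold change 1.504, SE 0.223, FDR = 1.41e-05). For these 2 genes all P15 libraries lay above all P5 libraries.

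*CD24*, a surface glycoprotein of young neurons, fell from 2092 ± 402 to 531 ± 121 CPM (log2 fold change -1.98, SE 0.182, FDR = 2.88e-09). *DPY19L1*, which acts in the radial migration of cortical neurons in the mouse, was at 639, 539, 648, 677 and 646 CPM at P5 and 179, 151, 183, 162 and 229 CPM at P15 (log2 fold change -1.802, SE 0.168, FDR = 3.25e-09), and only in P5 library 2 did it fall short of 600 CPM at that age. *FBXW7*, the substrate receptor of a ubiquitin ligase that acts on Notch and Myc proteins, was at 411, 497, 710.3, 942 and 747 CPM at P5 and 99.4, 117, 88.4, 98.01 and 142 CPM at P15 (log2 fold change -2.603, SE 0.2598, FDR = 1.09e-08). *DDAH2*, which degrades asymmetric dimethylarginine, fell from 256 ± 59.9 to 42.3 ± 8.27 CPM (log2 fold change -2.59, SE 0.214, FDR = 4.21e-10), and *TMEM26*, a membrane protein, from 260.2 ± 19.97 to 63.6 ± 12.2 CPM (log2 fold change -2.03, SE 0.187, FDR = 2.75e-09). None of these 5 genes overlapped between the ages. All are among the 12 falls of lowest p with a symbol, so their separation is no further support. Of all tested genes 12.8% were separated, and of the called genes 73.1%.

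**Figure D3:**
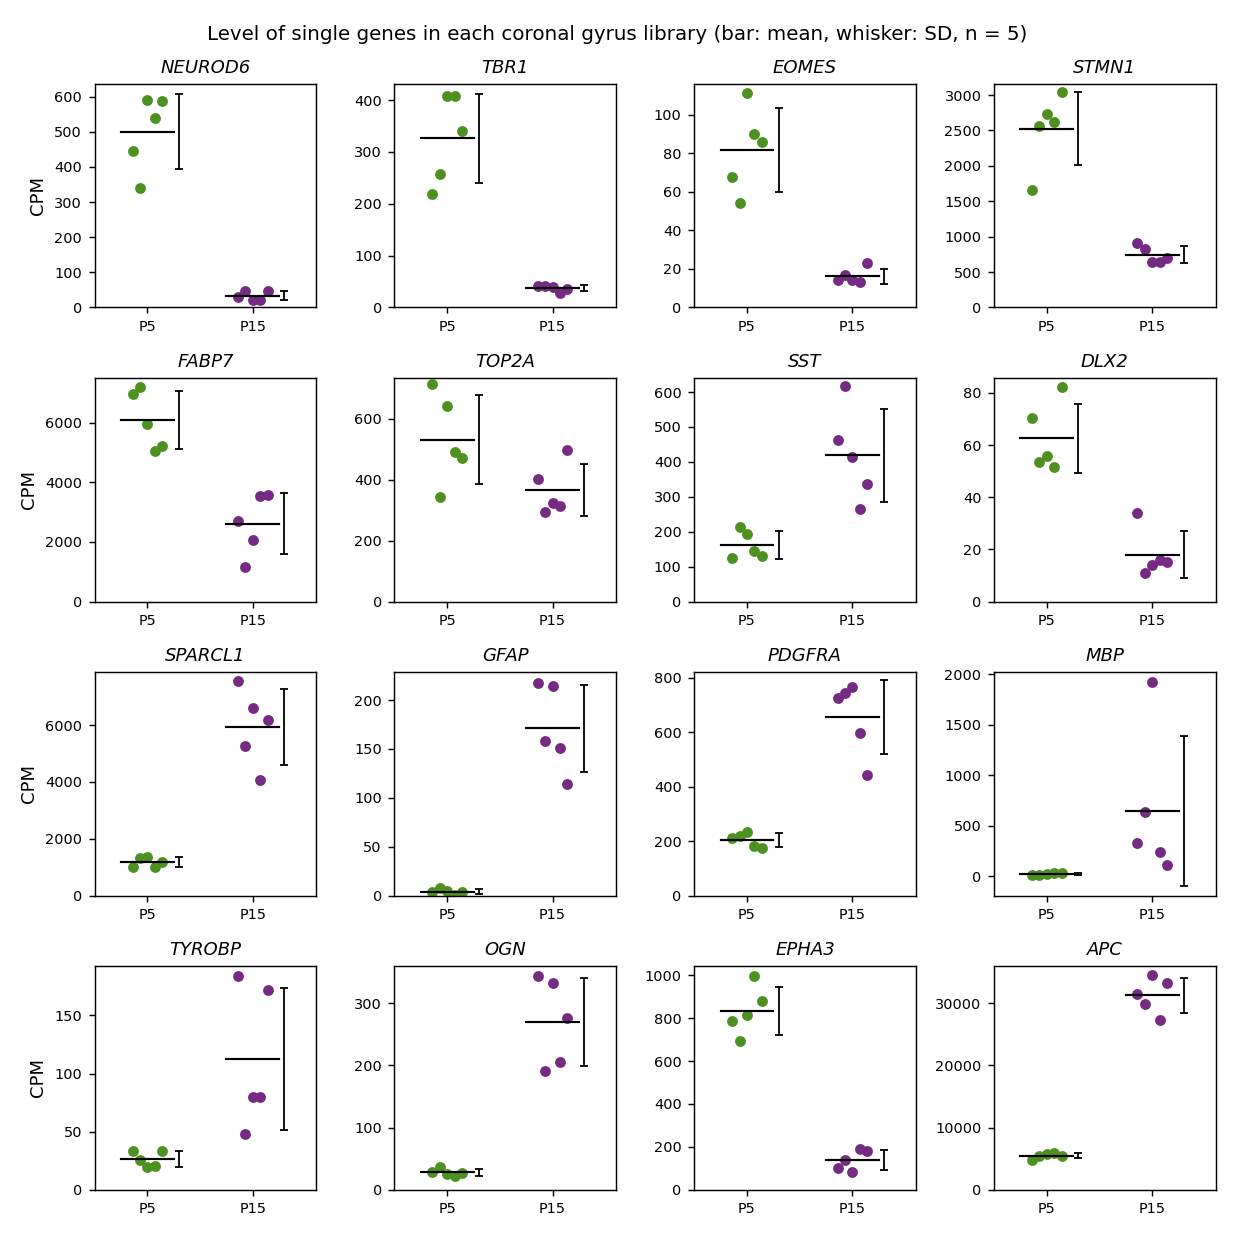
Level of 16 genes (CPM) in each CG library, with 5 points per age, a bar at the mean and a whisker of 1 SD. The 2 ages overlap for *TOP2A* alone among these genes, which were picked for display after their values were seen. The P15 values of *MBP* run from 108.4 to 1921 CPM, and those of *APC* lie between 27246 and 34471 CPM.

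Interneuron genes moved in both directions. Of 31 tested members 7 rose (22.6%, beside 7.39% of all tested genes) and 6 fell (19.4%, beside 5.72%), with a median of 0.23, and 4 rose without P5 library 4. The falls include *DLX2* and *DLX5*, factors that specify interneurons and drive their migration, and *MEIS2*, which is not particular to them. *DLX2* was at 70.2, 53.4, 55.8, 51.6 and 82.2 CPM at P5 and 33.9, 11.1, 13.95, 16.02 and 15.3 CPM at P15 (log2 fold change -1.79, SE 0.313, FDR = 1.34e-04), *DLX5* fell from 76.8 ± 20.4 to 21.8 ± 8.28 CPM (log2 fold change -1.82, SE 0.351, FDR = 4.73e-04) and *MEIS2*, which is shared by several ventral lineages, from 1015 ± 133 to 432 ± 44.5 CPM (log2 fold change -1.23, SE 0.154, FDR = 7.84e-07). P15 library 1 held the highest *DLX2* value of its age and still lay below every P5 library. The rises include neuropeptides and genes of maturing cells. *SST*, the neuropeptide somatostatin, was at 125, 214, 194, 146 and 130.2 CPM at P5 and 463, 616, 414, 266 and 337 CPM at P15 (log2 fold change 1.37, SE 0.223, FDR = 5.11e-05). *NPY*, neuropeptide Y, was at 83.8, 150.2, 112, 89.03 and 144 CPM at P5 and 444, 255, 211, 223 and 179 CPM at P15 (log2 fold change 1.18, SE 0.238, FDR = 7.98e-04). The calcium-binding protein *CALB1* had 24 reads in all P5 libraries together and 376 at P15 (4.87, 1.199, 0.558, 1.16 and 0 CPM at P5 and 20.4, 49.3, 20.9, 15.3 and 12.001 CPM at P15, log2 fold change 3.92, SE 0.781, FDR = 6.71e-04), with a log2 fold change of 4.93 without P5 library 1. *SOX6*, needed for interneurons of the medial ganglionic eminence to settle and also made by oligodendrocyte precursors, rose from 135 ± 29.2 to 269.6 ± 46.6 CPM (log2 fold change 0.996, SE 0.198, FDR = 6.73e-04). The summed level of the list spanned 3758 to 4777 CPM at P5 and 4086 to 4874 CPM at P15, so the groups overlap.

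Radial glia genes did not move as 1 group. Of 25 tested members 5 rose (20%, beside 7.39% of all tested genes) and 2 fell (8%, near the 5.72% of all tested genes). The median log2 fold change of -0.06 lay between -0.11 and 0.05 over the alternatives. The falls were 1 with library size or DESeq2 size factors in place of TMM, without the 10 highest genes, and without any 1 of P5 libraries 3, 4 and 5 and P15 libraries 2 and 4. *PAX6*, *VIM* and *NES* were present in every library of both ages, which does not tell the oSVZ from other layers with radial glia. *PAX6*, the transcription factor of dorsal radial glia, was at 50.4, 70.7, 49.1, 44.1 and 38.6 CPM at P5 and 70.4, 34.6, 40.9, 48.4 and 48.7 CPM at P15 (log2 fold change -0.06, SE 0.323, FDR = 0.941). *VIM*, an intermediate filament gene, averaged 507 ± 60.7 CPM at P5 and 383 ± 73.96 CPM at P15 (log2 fold change -0.401, SE 0.186, FDR = 0.164), and *NES*, another, 174 ± 38.5 CPM at P5 and 96.1 ± 38.8 CPM at P15 (log2 fold change -0.86, SE 0.297, FDR = 0.0535). None of the 3 passed the test, and the ranges overlap for each. Further defining genes, *SOX2*, *HOPX* and *HES5*, were not analysed here, since no symbol matched them. *FABP7*, which carries fatty acids in radial glia, was at 6944, 7203, 5944, 5063 and 5219.9 CPM at P5 and 2707, 1156, 2063, 3537 and 3577 CPM at P15, all P5 libraries being above P15 (log2 fold change -1.22, SE 0.258, FDR = 0.00132).

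Named among the 5 rises of that list are 3 genes that other glia share or that mark the outer kind. *LIFR*, the receptor of leukaemia inhibitory factor, was at 100.5, 103, 80.4, 84.1 and 73.9 CPM at P5 and 448, 355, 325, 291 and 332 CPM at P15 (log2 fold change 1.98, SE 0.186, FDR = 3.58e-09). *FAM107A*, a marker of human outer radial glia that astrocytes also make, had 19 reads at P5, in libraries 3 and 5, and 833 at P15 (0, 0, 1.12, 0 and 4.74 CPM at P5 and 72.7, 50.6, 68.4, 37.4 and 23.6 CPM at P15, log2 fold change 5.396, SE 0.755, FDR = 5.35e-06), with a log2 fold change of 7.23 without P5 library 5. *PTPRZ1*, a receptor phosphatase shared by outer radial glia and oligodendrocyte precursors, was at 2578, 2108, 2106, 2312 and 2514 CPM at P5 and 4406, 4173, 4135, 3876 and 4376 CPM at P15 (log2 fold change 0.85, SE 0.131, FDR = 2.22e-05), the smallest of these 3 rises. In all 3 cases the P15 libraries lay above the P5 libraries.

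Genes of dividing cells mostly had negative log2 fold changes, 31 of 35 in DNA replication and 38 of 39 in mitosis, and fewer passed the test. Of all 12669 tested genes 6256 had a positive log2 fold change. In the list of DNA replication 4 of 35 tested members fell and none rose (median -0.55), and in that of mitosis 12 of 39 fell and none rose (median -0.66). The shares that fell were 11.4% and 30.8%, beside 5.72% of all tested genes. The count for mitosis depended on single libraries, and 3 members were called without P15 library 1. There were 5 or 6 called without any 1 of P5 libraries 1, 3 and 5 and P15 libraries 2 and 3, and 2 without both P5 libraries 1 and 4. *KIF20B*, a kinesin of the last step of cell division, was at 336, 237, 316, 296 and 288 CPM at P5 and 167, 139, 179, 149 and 189 CPM at P15 (log2 fold change -0.84, SE 0.184, FDR = 0.00185). *CCNB2*, a mitotic cyclin, fell from 43.999 ± 7.02 to 19.8 ± 4.96 CPM (log2 fold change -1.15, SE 0.287, FDR = 0.00623). The ribonucleotide reductase subunit *RRM2* fell from 63.4 ± 15.7 to 23.8 ± 9.36 CPM (log2 fold change -1.41, SE 0.313, FDR = 0.00204), and *PCNA*, the sliding clamp of the replication fork, from 113 ± 20.5 to 56.8 ± 17.2 CPM (log2 fold change -0.99, SE 0.266, FDR = 0.0113). *TOP2A*, the most abundant mitotic gene here, was at 713, 342, 641, 491 and 470.2 CPM at P5 and 403, 295, 324, 312 and 497 CPM at P15, with overlapping ranges and no call (log2 fold change -0.54, SE 0.226, FDR = 0.1195). The mitosis list summed to 3207 to 6044 CPM at P5 and 2732 to 3565 CPM at P15.

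Astrocyte genes rose widely, with 21 of 38 tested members up (55.3%, beside 7.39% of all tested genes) and none down (median 0.93). Positive log2 fold changes were found in 37 of 38, beside 6256 of all 12669 tested genes. *SPARCL1* (hevin), which astrocytes secrete at synapses, was at 1017, 1327, 1377, 997 and 1194 CPM at P5 and 7539.8, 5258, 6610.5, 4075 and 6173 CPM at P15. The lowest P15 library (4075 CPM) lay above the highest P5 library (1377 CPM, log2 fold change 2.33, SE 0.186, FDR = 2.50e-10). *GFAP*, the intermediate filament of astrocytes, was at 3.82, 8.09, 4.75, 0.580 and 4.11 CPM at P5 and 218, 158, 214, 151 and 114 CPM at P15, a ratio of means of 40.05 (log2 fold change 5.31, SE 0.5504, FDR = 2.20e-08). *AQP4*, the water channel of astrocyte endfeet, was at 7.299, 16.8, 8.66, 11.3 and 13.9 CPM at P5 and 76.4, 54.2, 92.8, 120.1 and 78.2 CPM at P15 (log2 fold change 2.86, SE 0.329, FDR = 1.68e-07). *APOE*, which carries lipids from glia, rose from 11.2 ± 4.296 to 107 ± 29.8 CPM (log2 fold change 3.26, SE 0.322, FDR = 9.11e-09), and *CD44*, the hyaluronan receptor of astrocyte-restricted precursors, from 10.6 ± 6.14 to 128 ± 34.9 CPM (log2 fold change 3.595, SE 0.3401, FDR = 3.93e-09). *NTRK2*, the BDNF receptor that astrocytes make in a short form, was at 70.9, 107.9, 75.1, 91.4 and 120.1 CPM at P5 and 502, 448, 418, 476 and 504 CPM at P15 (log2 fold change 2.33, SE 0.234, FDR = 1.16e-08). No library of P15 overlapped with P5 in any of these 6 genes. The list summed to 5549 to 7096 CPM at P5 and 13555 to 19025 CPM at P15. Without P5 libraries 1 and 4 the astrocyte list had 12 members called.

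Oligodendrocyte precursor genes rose in 16 of 25 tested cases (64%, beside 7.39% of all tested genes) and fell in none (median 1.55, all 25 positive). *PDGFRA*, the receptor by which precursors answer platelet-derived growth factor, was at 211, 219.7, 232, 182 and 176 CPM at P5 and 723, 744, 767, 595 and 443 CPM at P15 (log2 fold change 1.68, SE 0.204, FDR = 4.97e-07). *GRIA4*, an AMPA receptor subunit of precursors and interneurons, was at 25.4, 24.6, 43.6, 32.8 and 44.2 CPM at P5 and 214, 273, 226, 209 and 165 CPM at P15 (log2 fold change 2.67, SE 0.227, FDR = 5.86e-10). *CSPG5* (neuroglycan C) rose from 124 ± 27.6 to 418 ± 85.5 CPM (log2 fold change 1.76, SE 0.203, FDR = 1.79e-07) and *VCAN* (versican) from 995 ± 113 to 2519 ± 168 CPM (log2 fold change 1.34, SE 0.146, FDR = 5.89e-08). *SOX10*, the master factor of the lineage, was at 1.74, 9.59, 9.21, 0 and 7.58 CPM at P5 and 47.1, 48.7, 37.7, 11.8 and 21.1 CPM at P15 (log2 fold change 2.55, SE 0.676, FDR = 0.0101). It did not overlap between the ages, but its call was lost without P5 libraries 1 and 4 (FDR 5.28e-07 to 0.0755 over the alternatives). *GPR17*, a receptor of precursors about to differentiate, was at 2.09, 14.99, 18.99, 4.06 and 7.58 CPM at P5 and 102, 143, 190, 41.2 and 59.6 CPM at P15 (log2 fold change 3.48, SE 0.496, FDR = 7.62e-06).

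The genes of committed oligodendrocytes and of myelin had the highest share of calls of any list with at least 10 tested members, and the largest median (2.17). Of 37 tested members 29 rose (78.4%, beside 7.39% of all tested genes) and none fell. *MBP*, the myelin basic protein, was at 10.4, 17.4, 20.9, 33.4 and 29.1 CPM at P5 and 327, 632, 1921, 246 and 108.4 CPM at P15 (log2 fold change 4.86, SE 0.632, FDR = 1.52e-06). P15 library 3 held 1921 CPM and P15 library 5 108.4 CPM, and all P15 libraries lay above P5. Without P15 library 3 the log2 fold change of *MBP* was 3.88. *CLDN11*, the tight junction protein of myelin, was at 20.5, 32.4, 29.3, 17.4 and 36.3 CPM at P5 and 275, 502, 766, 187 and 156 CPM at P15 (log2 fold change 3.79, SE 0.413, FDR = 5.89e-08). *ENPP6*, a choline phosphodiesterase of newly formed oligodendrocytes, rose from 9.16 ± 3.75 to 95.5 ± 20.6 CPM (log2 fold change 3.37, SE 0.382, FDR = 1.28e-07), and *QKI*, the RNA-binding protein that stabilises myelin transcripts, from 389 ± 67.4 to 899 ± 130.4 CPM (log2 fold change 1.21, SE 0.161, FDR = 2.30e-06). *MAG*, an adhesion protein of the inner myelin wrap, had no read in any P5 library and 459 reads at P15 (34.9, 19.9, 63.7, 3.05 and 3.64 CPM), at least 159-fold higher against a floor of 3 counts over the P5 group (FDR = 2.00e-04, edgeR). P15 library 3 held 274 of these reads, and without it the bound was 88.2-fold. *MAG* met the count filter only through libraries other than those of the CG at P5, so its FDR is not used as support. The list summed to 1799 to 2165 CPM at P5 and 4694 to 9733 CPM at P15. With *MAG* at its bound the median of the list was the same.

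**Figure D4:**
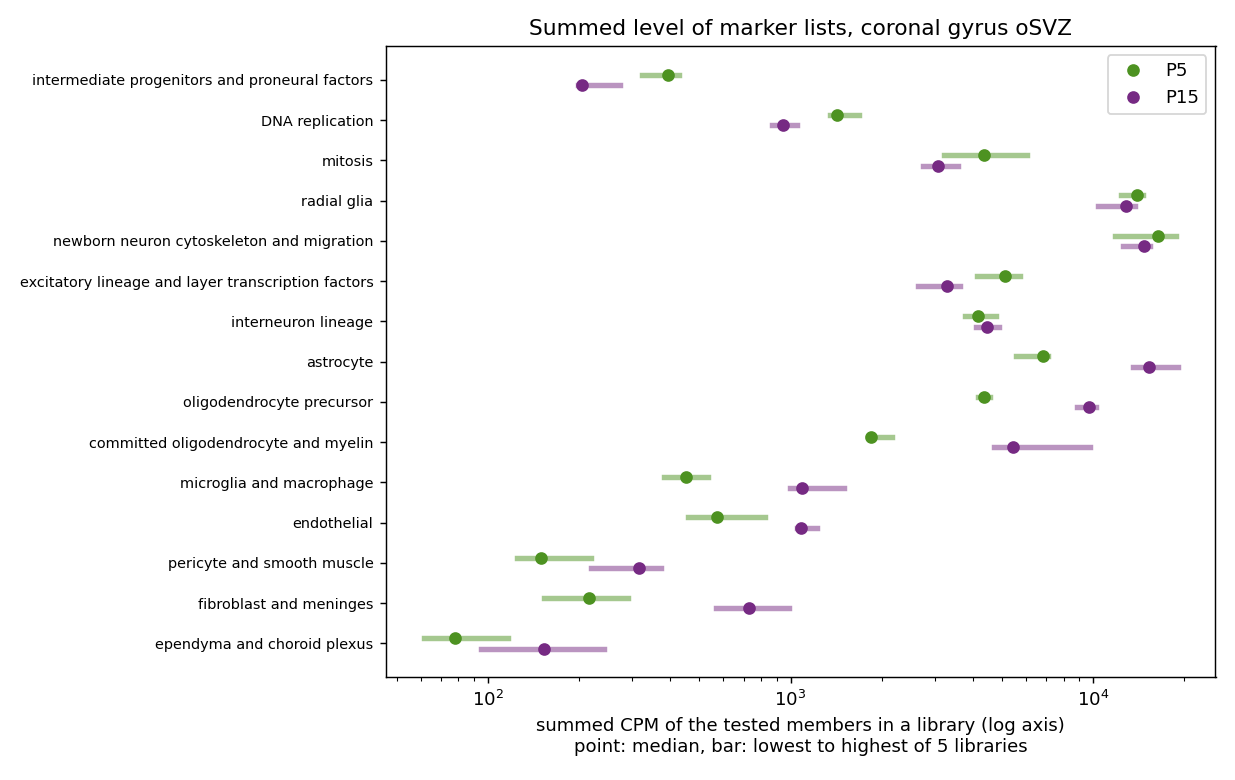
Summed level of the tested members of 15 marker lists (CPM, log axis), with a point at the median and a bar from the lowest to the highest of 5 libraries, P5 in green and P15 in purple. The bars do not overlap for astrocytes, oligodendrocyte precursors, committed oligodendrocytes, microglia, endothelium, pericytes (218.6 and 219.3 CPM at the nearest), fibroblasts, DNA replication, excitatory factors and intermediate progenitors, and they overlap for radial glia, the newborn neuron, interneurons, mitosis and the ependyma.

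Microglia are born outside the brain and enter it from the yolk sac. Of their 32 tested genes 16 rose (50%, beside 7.39% of all tested genes) and none fell (median 1.95). The list summed to 381 to 534 CPM at P5 and 993 to 1504 CPM at P15. *TYROBP*, the adaptor of microglial surface receptors, was at 33.4, 25.8, 19.5, 20.6 and 33.2 CPM at P5 and 184, 47.7, 79.99, 79.7 and 172 CPM at P15 (log2 fold change 2.09, SE 0.331, FDR = 3.68e-05). *GPR34*, a lysophosphatidylserine receptor, was at 15.6, 13.5, 18.1, 29.9 and 38.2 CPM at P5 and 149, 75.1, 85.6, 65.6 and 78.5 CPM at P15 (log2 fold change 1.98, SE 0.349, FDR = 1.58e-04), and *P2RY12*, the ADP receptor of resting microglia, at 17.03, 29.4, 14.5, 57.4 and 27.5 CPM at P5 and 151, 72.2, 108.4, 82.8 and 85.1 CPM at P15 (log2 fold change 1.77, SE 0.334, FDR = 3.44e-04). P15 library 1 was the highest of its age for each of the 3, and no P15 library overlapped with P5. *TMEM119*, a marker of adult microglia, and *CD163*, one of macrophages at brain borders, had no read in any CG library. *C3*, the central complement component, which belongs to no list, was at 36.8, 52.2, 65.1, 41.8 and 60.99 CPM at P5 and 384, 368, 537, 409 and 315 CPM at P15 (log2 fold change 2.97, SE 0.259, FDR = 9.50e-10).

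Of 30 tested endothelial genes 6 rose (20%, beside 7.39% of all tested genes) and none fell (median 0.84). The rises became 2 without P5 libraries 1 and 4, and the list summed to 460 to 825 CPM at P5 and 1051 to 1227 CPM at P15. *FLT1*, a VEGF receptor, was at 22.6, 14.7, 37.4, 19.1 and 26.5 CPM at P5 and 73.7, 79.7, 83.01, 98.01 and 68.7 CPM at P15 (log2 fold change 1.74, SE 0.287, FDR = 6.22e-05), and *SLC2A1*, the glucose transporter of the blood-brain barrier, rose from 105 ± 20.3 to 177 ± 20.4 CPM (log2 fold change 0.76, SE 0.201, FDR = 0.01001, FDR 0.00161 to 0.124 over the alternatives). *PECAM1*, the junction protein of all endothelium, was at 30.9, 45.3, 92.4, 73.1 and 47.1 CPM at P5 and 120.5, 73.5, 80.9, 106 and 80.4 CPM at P15, where the ranges overlap (log2 fold change 0.67, SE 0.306, FDR = 0.155). Among 12 tested pericyte and smooth muscle genes only *ABCC9*, a subunit of a potassium channel, passed (40.7, 19.5, 57.2, 87.3 and 47.7 CPM at P5 and 79.3, 122, 151, 41.2 and 120 CPM at P15, log2 fold change 1.02, SE 0.3299, FDR = 0.0352), although its ranges overlap and its FDR ran from 0.00195 to 0.129 over the alternatives. The call was lost without P5 library 1, 2 or 5 or P15 library 2, 3 or 5, and 2 genes of the list rose without P5 library 3. A count of 1 of 12 (8.33%) lies near the 7.39% of all tested genes that rose, and nothing is read from it. In the fibroblast and meninges list 6 of 16 tested genes rose (37.5%, median 1.39), and it summed to 154 to 291 CPM at P5 and 565 to 988 CPM at P15. *OGN* (osteoglycin), a small proteoglycan, was at 29.2, 36.6, 25.4, 21.5 and 27.5 CPM at P5 and 343, 190.4, 332, 205 and 276 CPM at P15 (log2 fold change 3.26, SE 0.241, FDR = 4.14e-11), the second-lowest p of all rises, and *POSTN* (periostin), a matricellular protein, rose from 16.7 ± 5.69 to 159 ± 55.4 CPM (log2 fold change 3.25, SE 0.332, FDR = 1.75e-08). *FOXC2*, *TWIST2*, *ALDH1A2* and *CRABP2* of that list had no read, and *LUM*, which encodes lumican, had 1 read at each age. Ependymal and choroid plexus genes summed to 61.4 to 117 CPM at P5 and 95.1 to 241 CPM at P15. They rose in 2 of 12 tested cases (16.7%), which became 1 without P15 library 4. The part that vessels, leptomeninges or microglia had in the changes of the matrix and signalling genes below was not tested.

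**Figure D5:**
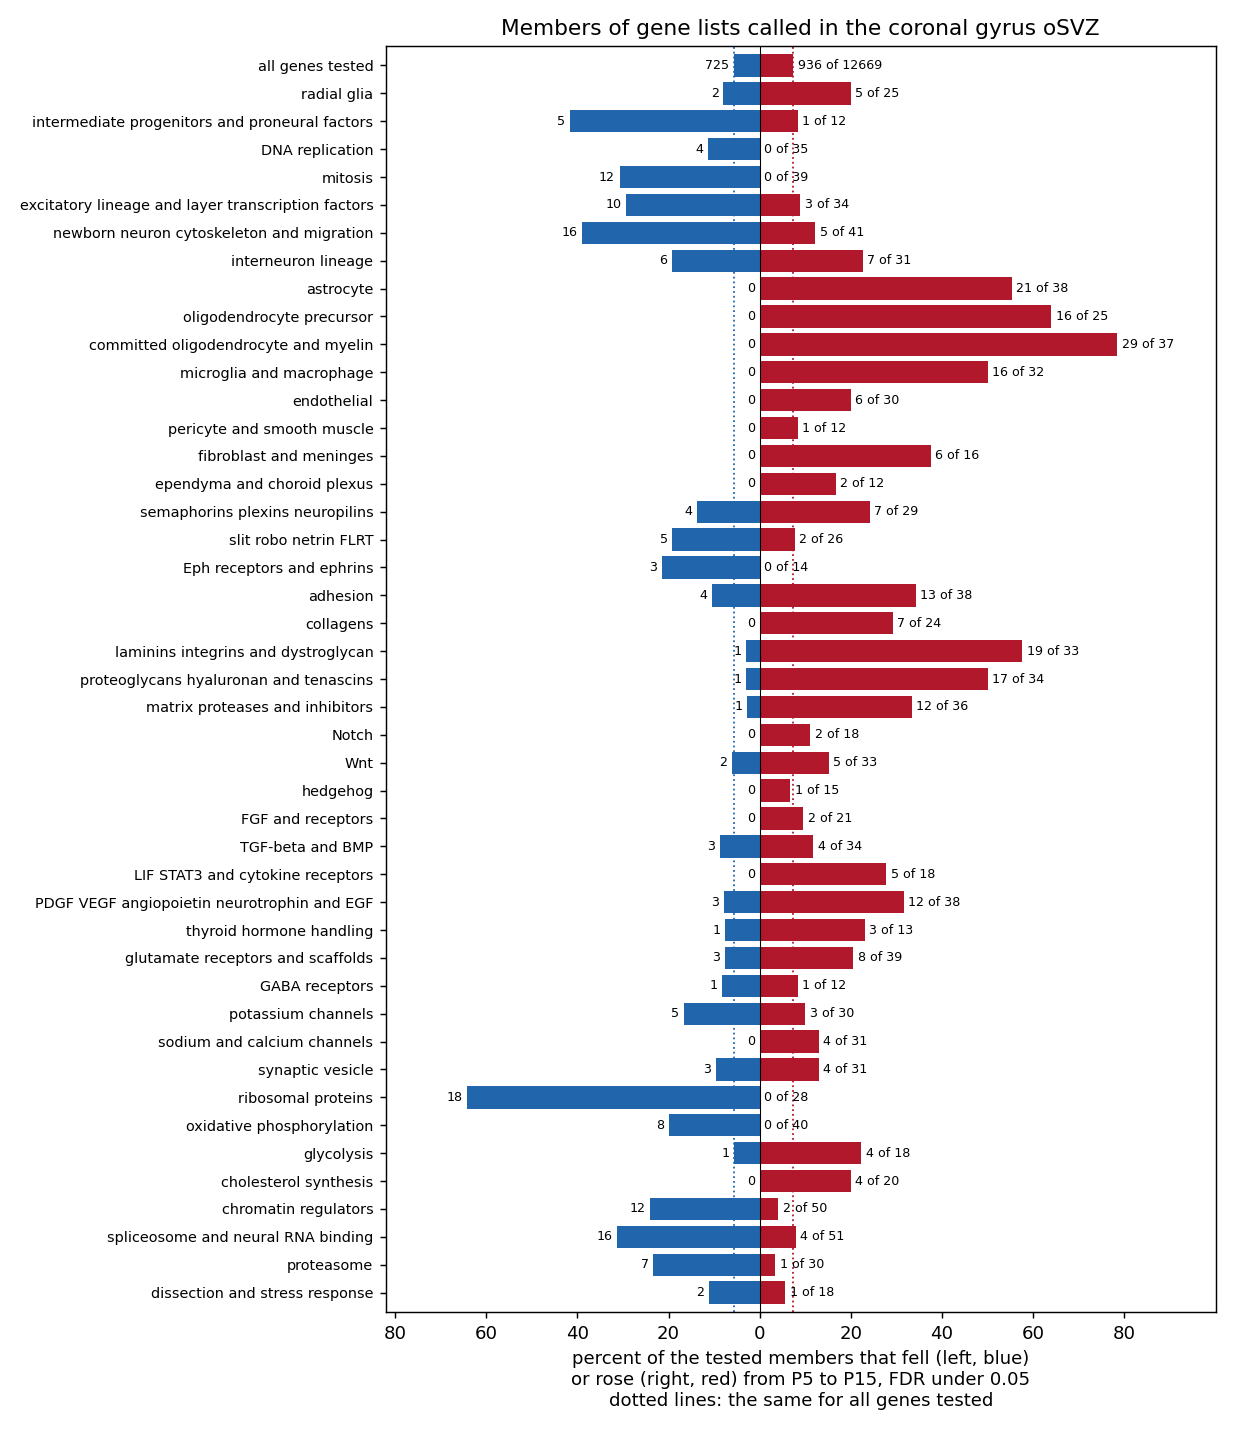
Percent of the tested members of each gene list that fell (left, blue) or rose (right, red) from P5 to P15 at an FDR under 0.05, with the counts beside the bars and dotted lines at the shares of all 12669 tested genes (5.72% and 7.39%). Lists with at least 10 tested members are drawn. Glial and matrix lists reach to the right, up to 29 of 37 for committed oligodendrocytes, and ribosomal proteins reach farthest to the left with 18 of 28.

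The lowest p of all falls was that of a guidance gene, *SEMA3C*, a secreted semaphorin at 679.5, 532, 842, 1112 and 777 CPM at P5 and 33.9, 38.2, 33.9, 35.1 and 52.4 CPM at P15 (log2 fold change -4.35, SE 0.232, FDR = 1.82e-14). P15 library 5 was the highest of its age and still lay far below every P5 library. Of 29 tested semaphorins, plexins and neuropilins 7 rose (24.1%, beside 7.39% of all tested genes) and 4 fell (13.8%, beside 5.72%), with a median of 0.27. The falls were 2 without P5 library 3 or P15 library 1. *SEMA3E*, which signals through plexin D1, moved the other way, at 4.17, 6.595, 12.3, 9.28 and 6.64 CPM at P5 and 78.996, 127, 97.7, 51.5 and 56.7 CPM at P15 (log2 fold change 3.39, SE 0.391, FDR = 1.79e-07), as did the transmembrane *SEMA6A* (74.8 ± 17.6 to 249 ± 94.6 CPM, log2 fold change 1.73, SE 0.2601, FDR = 1.60e-05). The slit receptors fell, *ROBO1* from 646 ± 129 to 184 ± 18.9 CPM (log2 fold change -1.81, SE 0.181, FDR = 1.09e-08) and *ROBO2* from 1005 ± 166 to 385 ± 67.5 CPM (log2 fold change -1.38, SE 0.15998, FDR = 1.79e-07). *UNC5D*, a receptor of netrins and FLRT proteins in multipolar migrating neurons, was at 42.4, 33.3, 98.3, 106 and 72.999 CPM at P5 and 0.987, 14.7, 12.6, 14.1 and 6.18 CPM at P15 (log2 fold change -2.85, SE 0.539, FDR = 3.60e-04). In the list of slits, robos, netrins and FLRT proteins 5 of 26 tested members fell (19.2%) and 2 rose (7.69%, near the share of all tested genes), with a median of 0.05. In this list 3 fell without P5 libraries 1 and 4. Eph receptors and ephrins, which repel or hold cells by contact, had 3 of 14 tested members down (21.4%) and none up (median -0.65). *EPHA3* was at 789, 693, 814, 997 and 879 CPM at P5 and 101, 138, 83.01, 191 and 179.6 CPM at P15 (log2 fold change -2.59, SE 0.219, FDR = 5.63e-10), and *EPHA5* fell from 477 ± 113 to 166 ± 47.5 CPM (log2 fold change -1.53, SE 0.244, FDR = 4.18e-05). Their list summed to 1439 to 1985 CPM at P5 and 427 to 713 CPM at P15.

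Adhesion genes rose in 13 of 38 tested cases (34.2%, beside 7.39% of all tested genes) and fell in 4 (10.5%, beside 5.72%), with a median of 0.79. There were 2 falls without P5 library 4 or P15 library 4. *CNTN1*, a contactin of axons and oligodendrocytes, was at 271, 239, 239.9, 268 and 276 CPM at P5 and 674, 748, 811, 934 and 730.2 CPM at P15 (log2 fold change 1.59, SE 0.151, FDR = 3.93e-09), and *ALCAM*, an adhesion protein of the immunoglobulin family, rose from 94.9 ± 18.1 to 326 ± 43.1 CPM (log2 fold change 1.78, SE 0.181, FDR = 1.58e-08). *L1CAM*, which axons use to grow along each other, fell from 142 ± 44.5 to 47.4 ± 15.2 CPM (log2 fold change -1.58, SE 0.261, FDR = 6.36e-05), and *CDHR1*, a cadherin-related protein, from 115 ± 48.6 to 16.7 ± 8.89 CPM (log2 fold change -2.76, SE 0.397, FDR = 8.58e-06). The ages did not overlap for any of the 4.

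Extracellular matrix genes rose far more often than they fell. Of 34 tested proteoglycan, hyaluronan and tenascin genes 17 rose (50%) and 1 fell (median 1.45). Of 33 laminin, integrin and dystroglycan genes 19 rose (57.6%) and 1 fell (median 1.05). Of 24 collagens 7 rose (29.2%) and none fell (median 1.19), and of 36 matrix proteases and inhibitors 12 rose (33.3%) and 1 fell (median 1.30). Of all tested genes 7.39% rose and 5.72% fell. Collagens numbered 4 rises without P15 library 2. *COL11A1*, a fibril-forming collagen chain, was at 159, 140, 172, 128 and 119 CPM at P5 and 318, 329.9, 309, 347 and 308 CPM at P15 (log2 fold change 1.17, SE 0.178, FDR = 2.12e-05), with no overlap. *HAPLN1*, the link protein that ties proteoglycans to hyaluronan, was at 31.3, 36.3, 20.1, 13.3 and 32.2 CPM at P5 and 100.4, 171, 155, 141 and 107 CPM at P15 (log2 fold change 2.34, SE 0.268, FDR = 1.62e-07), and *TNR*, the tenascin of perineuronal nets that oligodendrocytes secrete, rose from 17.8 ± 10.5 to 159 ± 65.1 CPM (log2 fold change 3.14, SE 0.538, FDR = 1.06e-04). *ITGB8*, the integrin beta chain of radial glia that frees TGF-beta, was at 351, 294, 305, 307 and 291 CPM at P5 and 819.6, 429, 626, 546 and 757 CPM at P15 (log2 fold change 1.04, SE 0.179, FDR = 1.14e-04), and *ITGA6*, a laminin receptor chain, rose from 68.1 ± 13.9 to 166 ± 21.4 CPM (log2 fold change 1.29, SE 0.233, FDR = 2.07e-04). *ILK*, the kinase-like adaptor behind integrins, was the exception, at 330.2, 430.2, 270.3, 236 and 338 CPM at P5 and 190.2, 149, 138, 259 and 149.8 CPM at P15 with P15 library 4 inside the P5 range (log2 fold change -0.86, SE 0.193, FDR = 0.00243). The fall in the proteoglycan list was lost without P5 library 1 or P15 library 1, 2, 3 or 5, and there were 2 without P15 library 4. The proteoglycan list summed to 6379 to 7673 CPM at P5 and 13720 to 18795 CPM at P15.

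*ADAMTS9*, which cleaves versican and aggrecan, was at 2.78, 1.799, 6.42, 7.25 and 1.58 CPM at P5 and 59.2, 118, 116, 92.3 and 69.8 CPM at P15 (log2 fold change 4.49, SE 0.423, FDR = 3.65e-09). *ADAMTS18*, of the same family, moved the opposite way, from 838 reads at P5 to 51 at P15 (63.3, 34.5, 52.5, 51.04 and 55.9 CPM at P5 and 1.32, 3.27, 4.19, 0.381 and 6.55 CPM at P15, log2 fold change -4.003, SE 0.645, FDR = 4.52e-05). *HTRA1*, a secreted serine protease, rose from 127 ± 37.9 to 511 ± 178 CPM (log2 fold change 2.01, SE 0.238, FDR = 2.96e-07). *C1QTNF3*, a secreted protein related to complement C1q, had 5 reads in P5 library 3, none in the other 4 P5 libraries, and 981 reads at P15 (0, 0, 1.396, 0 and 0 CPM at P5 and 66.2, 53.9, 74.6, 43.1 and 65.8 CPM at P15, FDR = 2.24e-08, edgeR).

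Among signalling genes, *APC*, a scaffold of the complex that degrades beta-catenin and a microtubule protein, was the second most abundant gene of the 10 libraries. It was at 4875, 5437, 5781, 5885 and 5512 CPM at P5 and 31403, 29857, 34471, 27246 and 33159.5 CPM at P15, a rise of 5.68-fold in the means with no overlap (log2 fold change 2.51, SE 0.169, FDR = 4.46e-12), and it took 0.541% of the reads at P5 and 3.27% at P15. In the Wnt list 5 of 33 tested members rose (15.2%, beside 7.39% of all tested genes) and 2 fell (6.06%, near the 5.72% of all tested genes), with a median of 0.42. The Wnt list summed to 6293 to 7666 CPM at P5 and 28715 to 36113 CPM at P15, and most of that sum is *APC*. Its rises were 3 without P15 library 3. Its falls were 0 without P15 library 2 and 1 without any 1 of P5 libraries 3, 4 and 5 and P15 library 1. *TCF7L2*, a Wnt effector that oligodendrocytes need to differentiate, was at 41.4, 25.2, 29.04, 45.2 and 46.1 CPM at P5 and 118, 161, 205, 64.8 and 97.1 CPM at P15 (log2 fold change 1.79, SE 0.269, FDR = 1.64e-05). Notch genes rose in 2 of 18 tested cases, hedgehog genes in 1 of 15, and FGF genes and their receptors in 2 of 21, beside 7.39% of all tested genes, and none of the 3 lists had a fall. The FGF count was 1 without any 1 library other than P5 libraries 2 and 3 and P15 library 4. Hedgehog genes had 2 rises without P5 library 1, 3 or 5 or P15 library 4, and Notch genes 1 fall without P5 library 4. *FGF1* rose from 19.6 ± 6.81 to 61.7 ± 16.1 CPM (log2 fold change 1.66, SE 0.358, FDR = 0.00165). Of 34 tested genes of TGF-beta and BMP signalling 4 rose and 3 fell, with 2 rises without P5 library 3 or 5 and 1 fall without P5 library 4 or 5 or P15 library 3. These shares (11.8% and 8.82%) lie near the 7.39% and 5.72% of all tested genes, and nothing is read from them.

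Of 18 tested genes of LIF, STAT3 and cytokine receptors 5 rose (27.8%, beside 7.39% of all tested genes) and none fell (median 0.45). *IL6ST* (gp130), the chain that pairs with *LIFR*, rose from 99.3 ± 19.04 to 203 ± 52.6 CPM (log2 fold change 1.03, SE 0.209, FDR = 8.30e-04), and *STAT3*, which their signal activates, from 34.2 ± 6.55 to 92.7 ± 24.9 CPM (log2 fold change 1.44, SE 0.273, FDR = 3.82e-04). In the list of PDGF, VEGF, angiopoietin, neurotrophin and EGF signalling 12 of 38 tested members rose (31.6%) and 3 fell (7.89%, near the 5.72% of all tested genes), with a median of 0.99. *ANGPT1*, the ligand that steadies vessels through the TEK receptor, was at 59.8, 41.4, 42.7, 27.3 and 36.7 CPM at P5 and 356, 226, 235, 207 and 303 CPM at P15 (log2 fold change 2.68, SE 0.215, FDR = 2.59e-10). *HBEGF*, an EGF receptor ligand, was at 6.26, 4.197, 7.54, 4.35 and 11.4 CPM at P5 and 59.9, 59.1, 57.9, 55.3 and 37.5 CPM at P15 (log2 fold change 2.99, SE 0.329, FDR = 6.96e-08). *IGFBP2*, which binds insulin-like growth factors, fell from 279 ± 73.1 to 111 ± 18.9 CPM (log2 fold change -1.33, SE 0.203, FDR = 2.22e-05).

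Glutamate receptors and their scaffolds rose in 8 of 39 tested cases and fell in 3, GABA receptors in 1 and 1 of 12, potassium channels in 3 and 5 of 30, sodium and calcium channels in 4 and 0 of 31, and synaptic vesicle genes in 4 and 3 of 31. Of all tested genes 7.39% rose and 5.72% fell, and nothing is read from the counts that lie near these shares, such as those of GABA receptors. *GRIA3*, an AMPA receptor subunit, rose from 112 ± 35.8 to 289 ± 94.3 CPM (log2 fold change 1.36, SE 0.247, FDR = 2.22e-04). *NETO2*, an auxiliary subunit of kainate receptors, was at 587, 553, 627, 763 and 609 CPM at P5 and 227, 173, 196, 268 and 286 CPM at P15 (log2 fold change -1.45, SE 0.178, FDR = 5.75e-07). *SCN2A*, the sodium channel of immature axons, rose from 48.9 ± 8.35 to 144 ± 23.3 CPM (log2 fold change 1.56, SE 0.197, FDR = 9.19e-07). *KCNMA1*, the large-conductance potassium channel, rose from 24.7 ± 9.36 to 90.1 ± 15.3 CPM (log2 fold change 1.87, SE 0.278, FDR = 1.41e-05). *KCNK2*, a leak potassium channel, was at 122, 152, 255, 319 and 260.1 CPM at P5 and 21.1, 37.6, 19.3, 38.1 and 46.5 CPM at P15 (log2 fold change -2.77, SE 0.268, FDR = 6.06e-09). *SLC17A6*, which loads glutamate into vesicles, was at 41.7, 23.1, 43.3, 66.7 and 67.6 CPM at P5 and 17.8, 13.1, 2.56, 0.381 and 5.45 CPM at P15 (log2 fold change -2.62, SE 0.4903, FDR = 3.17e-04). *RIMS2*, of the presynaptic active zone, rose from 170.4 ± 39.1 to 332 ± 35.8 CPM (log2 fold change 0.96, SE 0.178, FDR = 2.72e-04). Counts of the vesicle list rested on few libraries, with 1 rise without P15 library 2 and 2 without P5 library 1 or 4. GABA receptors had 2 rises without P5 library 2. Potassium channels had 1 rise without P5 library 1 or P15 library 2 and 3 falls without P5 libraries 3 or 4 or P15 libraries 1 or 4.

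Ribosomal protein genes fell in 18 of 28 tested cases (64.3%, beside 5.72% of all tested genes) and rose in none. All 28 had a negative log2 fold change (median -0.72, and -0.65 with library size in place of TMM). Abundant genes as a whole had negative medians, -0.47 for the 93 tested genes of at least 1000 CPM and -0.18 from 300 to 1000 CPM. Only 29 of the 79 symbols of the ribosomal list were in the annotation. The list summed to 38389 to 61944 CPM at P5 and 16914 to 38300 CPM at P15, and single libraries weighed on its calls, 9 genes being called without P5 library 2, P15 library 2 or P15 library 3. *RPL13A* was at 2908, 3808, 2359, 2408 and 2769.8 CPM at P5 and 1679, 901, 1006, 1947 and 1549.5 CPM at P15 (log2 fold change -1.01, SE 0.211, FDR = 0.00114), with P15 library 2 lowest. *RPLP1*, the most abundant of them, was at 5299, 8056, 3809, 3700.1 and 5677 CPM at P5 and 3639.7, 1924, 1977, 5798 and 3571 CPM at P15, where the ranges overlap (log2 fold change -0.65, SE 0.265, FDR = 0.106). Of 40 tested genes of oxidative phosphorylation 8 fell (20%) and none rose (median -0.31), and 4 fell without P5 library 2 and 5 without P15 library 2. Among the falls was *ATP5PF*, a subunit of ATP synthase (289.9 ± 41.1 to 145 ± 47.4 CPM, log2 fold change -0.997, SE 0.22005, FDR = 0.00200).

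Genes that package or process nucleic acids fell more often than they rose, 12 against 2 of 50 chromatin regulators (median -0.10, and 0.000568 with library size in place of TMM, with no rise called without P15 library 2) and 16 against 4 of 51 genes of the spliceosome and neural RNA binding (median -0.48). The latter had 10 falls without P15 library 2 and 2 rises without P5 library 1 or 5 or P15 library 3. The chromatin regulators had 1 rise without P5 library 1 or 2 or P15 library 3. *H2AZ1*, a histone variant, was at 950.3, 552, 617, 712 and 568 CPM at P5 and 307, 158, 197, 337 and 406 CPM at P15 (log2 fold change -1.27, SE 0.255, FDR = 7.04e-04). *HMGB2*, a chromatin protein of neural progenitors, fell from 442 ± 76.2 to 213 ± 42.6 CPM (log2 fold change -1.05, SE 0.186, FDR = 1.58e-04), and *EZH2*, the methyltransferase of the Polycomb complex, from 106 ± 27.9 to 48.1 ± 8.19 CPM (log2 fold change -1.14, SE 0.239, FDR = 0.00114). Of 30 tested proteasome genes 7 fell and 1 rose. That rise, *PSMC1*, rested on 2 libraries, since its level was 56.3, 56.7, 139, 72.5 and 61.9 CPM at P5 and 1016, 699, 59.8, 39.3 and 52.4 CPM at P15 (log2 fold change 2.27, SE 0.625, FDR = 0.0133), and the call was lost without P15 library 1 or 2. Cholesterol synthesis genes rose in 4 of 20 tested cases, *HMGCS1*, its early synthase, among them (118, 108.2, 157, 132 and 125 CPM at P5 and 333, 285, 426, 296 and 327 CPM at P15, log2 fold change 1.38, SE 0.205, FDR = 1.37e-05), and glycolysis genes in 4 of 18 with 1 fall. Each of these counts of 4 was 1 without P5 libraries 1 and 4, and the cholesterol count was 1 without P5 library 4 or P15 library 2 or 3 and 2 without P5 library 1 or 5 or P15 library 1 or 4. The fall among glycolysis genes was lost without any 1 library other than P5 library 1 and P15 library 1. Of 18 tested genes of dissection and stress response 1 rose and 2 fell, among the latter *DUSP1*, an immediate-early phosphatase (103, 103, 139.9, 105 and 133 CPM at P5 and 46.4, 42.1, 21.4, 32.04 and 33.1 CPM at P15, log2 fold change -1.74, SE 0.265, FDR = 2.06e-05). The rise was lost without P5 library 1 or 4 or P15 library 1 or 3, and the falls were 1 without any 1 library other than P5 library 5 and P15 library 5. Nothing is read from these counts, beside 7.39% and 5.72% of all tested genes.

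Of the 12 rises of lowest p with a symbol, *C3* above and 3 further genes belong to none of the lists. *EPB41L2*, a band 4.1 protein, was at 87.9, 98.6, 148, 129 and 175 CPM at P5 and 595, 984, 948, 785 and 665 CPM at P15 (log2 fold change 2.64, SE 0.229, FDR = 9.47e-10). *DTNA* (dystrobrevin alpha), of the dystrophin complex, rose from 37.6 ± 16.9 to 245 ± 35.5 CPM (log2 fold change 2.701, SE 0.25001, FDR = 3.09e-09), and *ARAP2*, a regulator of small GTPases, from 19.8 ± 4.44 to 152 ± 34.3 CPM (log2 fold change 2.93, SE 0.275, FDR = 3.58e-09). All 3 were separated between the ages.

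Genes close to absence at 1 age widen the range of sizes. With at least 30 reads at the other age, 75 genes had no read in any P5 library, of which 12 had enough reads at P15 to be tested, and 12 had none in any P15 library, none of them tested. They are few beside the 21247 genes with a read in the CG libraries. At equal depth more genes had a read at P15 (mean 15841.5) than at P5 (14634.5), and its part in these counts was not tested. The 12 tested genes met the count filter only through libraries other than those of the CG at P5, so their FDRs are not used as support. Of the tested genes with a symbol and no read at P5, those with the most reads at P15 after *MAG* were *PDGFRL*, a protein related to the PDGF receptor (185 reads, at least 64.1-fold higher, FDR = 1.27e-04, edgeR), *HSPB8*, a small heat shock protein (81 reads in 4 libraries, at least 28.1-fold, FDR = 0.00802), and *C10orf90* (78 reads, at least 27.0-fold, FDR = 0.00406). Without P15 library 3 these bounds were 41.0-fold, 17.2-fold and 17.6-fold. *TPH1*, a tryptophan hydroxylase, had 123 reads in P15 libraries 1, 2 and 3 and was not tested. With no read at P15 were *AP1G2*, an adaptor subunit (87 reads at P5, at least 27.9-fold lower), *GCG*, which encodes proglucagon (81 reads, at least 26.0-fold), *EMX1*, a factor of the dorsal telencephalon (46 reads in all 5 libraries, at least 14.7-fold), *DSP* (desmoplakin, 43 reads) and *LAMP3* (41 reads). Without P5 library 1 the bound was 14.8-fold for *AP1G2* and 12.05-fold for *GCG*. The reads of *DSP* lay in 3 P5 libraries and those of *LAMP3* in 4. These bounds use 3 counts over the group and cover counting error only, since the amplified reads carry no molecular identifiers.

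Other genes had a handful of reads at 1 age. *RAB7B*, a small GTPase of late endosomes, had 2 reads at P5 and 182 at P15, a ratio of 94.7 (exact 95% counting interval 25.8 to 788). *CDK18*, a kinase of the oligodendrocyte lineage, had 2 and 174 reads (ratio 90.5, 24.7 to 753, and 55.1 without P15 library 3), and *MAP3K19* 2 and 95 (ratio 49.4, 13.3 to 414). Both P5 reads of *RAB7B* lay in library 2 and both of *MAP3K19* in library 3. *ADA2*, a secreted adenosine deaminase of macrophages, had 1 and 92 (ratio 95.7, 16.8 to 3821), but P15 library 1 held 23.4 CPM of it against 0.727 to 2.79 CPM in the others, and without that library the ratio was 27.1 and the call was lost (FDR 4.11e-04 to 0.0692 over the alternatives). *SLC13A4*, a sulphate transporter, rose from 7 to 281 reads (0, 0, 0.558, 0 and 1.58 CPM at P5 and 12.2, 24.5, 27.2, 11.8 and 7.64 CPM at P15, FDR = 1.43e-04, edgeR). In the other direction *CRTAM*, an immune adhesion receptor, went from 131 reads to 4 (3.82, 8.99, 15.6, 6.09 and 4.11 CPM at P5 and 0, 0.653, 0.233, 0.381 and 0 CPM at P15, FDR = 0.00202), *EBF3*, a factor of early-born neurons, from 138 to 8 (9.04, 9.59, 9.49, 2.03 and 12.3 CPM at P5 and 0, 0.653, 0.233, 0 and 1.82 CPM at P15, FDR = 0.0111), and *NXPH4*, a neurexin ligand, from 231 to 28 (11.5, 8.69, 20.1, 22.3 and 6.32 CPM at P5 and 0, 1.31, 3.72, 0 and 2.91 CPM at P15, FDR = 0.0247, and 0.00210 to 0.101 over the alternatives). The *NXPH4* call was lost without P5 library 3 or 4 or P15 library 1, 2 or 4.

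The change with age in the CG was set against that in the SSS of the same animals, with the animal as a block. None of 12669 genes differed in its change between the regions at an FDR under 0.05 (0%, edgeR), the lowest FDR being 0.291, and 488 genes (3.85%) had an unadjusted p under 0.05. DESeq2 and limma-voom, without the block, also called 0, and edgeR called 1 gene without P5 animal 5. The lowest p was that of *SST*, whose log2 fold change was 1.37 in the CG (SE 0.223) and 2.49 in the SSS (SE 0.231), a difference of -1.17 (SE 0.224, FDR = 0.291, edgeR). *SST* averaged 140 ± 37.2 CPM at P5 and 788 ± 155 CPM at P15 in the SSS. After it came *CDK18*, with 0.12 in the SSS (SE 0.793) and a difference of 5.41 (SE 1.24, FDR = 0.998, edgeR). A missing call does not show that the 2 regions changed alike. The median standard error of the change within the CG alone was 0.472 for genes of 10 to 30 CPM. In simulated data with genes changed in the CG at P15 only, the interaction recovered 4% of 2-fold and 38% of 4-fold differences. The age test recovered 21% and 58% of them. The simulated libraries were drawn independently, without a shared part per animal.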

How the data were processed

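RNA of laser-captured oSVZ was amplified isothermally with a single primer (SPIA) and sequenced in paired ends. The authors used Trimmomatic 0.38 for trimming, FastQC 0.11.9 for quality control, STAR 2.7.9a for alignment to MusPutFur1.0, a ferret genome build, and featureCounts for counting by Ensembl gene. The deposited values are these raw counts, with no normalization. Reads that map to several places were not counted, which lowers genes with near-identical copies. For the strand setting of the counting, the sources used here give nothing, so that a gene and an overlapping antisense gene cannot be told apart. The reads carry no molecular identifiers, and precision from depth covers counting error only.

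The symbol column was out of step with the identifiers line by line and followed their sorted order. Read in sorted order, 29 ribosomal protein genes had a median of 851 CPM (1.39 line by line), and 153 olfactory receptor genes a median of 0. Of 32057 identifiers 17208 had a symbol, and 9880 of 10471 tested symbols were found in the RefSeq gene table.

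Groups were taken from the labels. Genes were tested with edgeR 4.0.16 (R 4.3.3) by the quasi-likelihood F-test on 4 group means over all 20 libraries, which share 1 estimate of the spread, after filtering on a minimum count of 10 and a minimum total of 15 and TMM scaling, with Benjamini-Hochberg adjustment and a limit of 0.05. That model has no animal term, so the CG and SSS libraries of an animal were taken as independent in the spread. With only the 10 CG libraries, 1997 genes were called. SE is the size of the log2 fold change over the square root of F. A 1.5-fold limit was tested with glmTreat, and the difference between regions by an interaction with the animal as a block. Library measures were compared by exact permutation. The scripts were tested on simulated data. Alternatives were other scalings, no filter and a stricter filter, DESeq2 1.42.0, limma-voom (limma 3.58.1), a newer quasi-likelihood fit, only the CG libraries, the RNA integrity number as covariate, a replicate block, and leaving out each library. The joint omission of P5 libraries 1 and 4 was added after seeing the data.

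The 47 gene lists and the comparison were chosen with earlier results of these data known. The text draws its genes from a rule: the 12 rises and 12 falls of lowest p, the 10 of largest change with separated groups and at least 5 CPM, the 3 of lowest p per list and direction with the most abundant member, the 8 most abundant genes, and the 5 with most reads among those absent at 1 age. Not all of these are described, and results for some genes are not reported here. *CUX2*, *DCX*, *NPY*, *VIM*, *PAX6*, *NES*, *PCNA*, *AQP4*, *PDGFRA*, *GPR17*, *SOX10*, *P2RY12*, *PECAM1*, *HAPLN1*, *TNR* and *EZH2* were added after their values were seen. Results for the mitochondrially encoded list could not be had, since it had no tested member. Thyroid hormone genes rose in 3 and fell in 1 of 13 tested cases (the fall was lost without any 1 library other than P5 libraries 3 and 5 and P15 library 4), and 3 tested erythroid genes had no call.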

Additional observations from a re-analysis of the deposited data

Results flagged for a closer look

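In 21 of 250 sets of 5 libraries of 1 age, 1 library stood apart from the other 4 by Dixon's criterion (8.4%). Its limit gives about 1 in 20 for normally distributed values only. These are CPM of selected genes, and the criterion is always met where 1 library holds all the reads, so the share is not compared with chance. P15 library 1 held 6 of the 11 such values at P15. It was highest for *ELAVL4* (239 CPM, others 160.0 to 179.7), *NPY* (444 CPM, others 179 to 255), *DLX2* (33.9 CPM, others 11.1 to 16.0), *VIM* (514 CPM, others 339 to 364), *GPR34* (149 CPM, others 65.6 to 85.6) and *ADA2* (23.4 CPM, others 0.727 to 2.79).

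P15 library 3 was highest for the myelin gene *MBP* (1921 CPM, others 108.4 to 632). P15 library 5 was highest for *SEMA3C* (52.4 CPM, others 33.9 to 38.2) and lowest for *HBEGF* (37.5 CPM, others 55.3 to 59.9). P15 library 2 was highest for *CALB1* (49.3 CPM, others 12.001 to 20.9) and P15 library 4 for *HMGA2* (19.8 CPM, others 3.95 to 8.49).

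At P5, library 1 was highest for *CALB1* (4.87 CPM) and *ITGB8* (351 CPM, others 291 to 307), library 2 was highest for *CSPG5* (171 CPM, others 101 to 121) and lowest for *DPY19L1* (539 CPM, others 639 to 677), and library 3 was highest for *PSMC1* (139 CPM, others 56.3 to 72.5). For 4 genes 1 P5 library held all the reads of that age, *C1QTNF3* in library 3 (1.40 CPM), *RAB7B* in library 2 (0.600 CPM), *MAP3K19* in library 3 (0.558 CPM) and *ADA2* in library 5 (0.316 CPM). *FAM107A* was at 4.74 CPM in P5 library 5, against 0 to 1.12 CPM in the others.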

How the results depend on the processing

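Across scalings, filters and tools 1637 to 2209 genes were called in the CG, and none of the 1661 genes was called with the other sign. With library size alone in place of TMM, 1047 of the 1644 called genes rose (63.7%, against 56.4% with TMM). Leaving out 1 library at a time gave 1189 to 1518 calls, 696 to 868 of them up and 493 to 661 down, and 447 to 556 past 1.5-fold. Without P5 libraries 1 and 4 together there were 1015 calls (572 up, 443 down) and 368 past 1.5-fold, a setting with fewer samples. The replicate numbers of the ages belong to different animals. With the number as a replicate block, fitted to the 10 CG libraries, 1815 genes were called, and deviations of same-numbered libraries correlated at -0.09 to 0.12, with the own number highest in 1 of 5 cases, so that the numbers do not pair the libraries. The interaction called 5 genes with no filter on low counts and 0 to 1 without single animals. The difference in genes detected at equal depth was 1011 to 1465 over the omissions of 1 library, and the exact permutation p rose to between 0.0556 and 0.0714 without any 1 of the P5 libraries. The uncalled values of *PAX6* and *SEH1L* changed sign with library size alone (0.0163 and 0.0158) and without P5 library 2 or P15 library 2, and over the omissions of 1 library they ranged from -0.22 to 0.10 and from -0.18 to 0.13. *NES* and *RPLP1*, not called here, passed in some alternatives. The causes were not tested. Precision was lower at low levels (median standard error 0.472 from 10 to 30 CPM and 0.181 from 300 to 1000 CPM), and the parts of depth and of variation between animals in it were not tested.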
